A study of Arabidopsis thaliana with 24 samples.

Results

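The comparison described here sets rosettes of the Arabidopsis *phot2* mutant against rosettes of the wild type, all harvested after UV-C, and asks which nuclear genes differed in transcript level and what those genes do. Its members are the 6 RNA-Seq libraries that the sample labels name as *phot2* UV-C and wild type UV-C, 3 of each, out of 24 libraries in the series. *phot2* lacks functional phototropin 2, and its reference is Col-0 carrying *gl1*, a mutation that inhibits trichome formation and that the mutant line carries too. Every plant grew under an 8 h photoperiod, was irradiated as a whole rosette (100 mJ cm-2 UV-C), and was harvested 30 min afterwards, and each library is a biological replicate pooled from at least 4 rosettes. The 3 libraries of non-treated *phot2* and the 3 of non-treated wild type, which share no library with the UV-C comparison, are used here only to see whether a difference was also present without UV-C. The sample labels give an age of 4 weeks while the methods text on RNA isolation has 3 weeks, the time of day of the harvests is not given in the sources used here, and each genotype was represented by a single line, so differences that belong to the line cannot be told apart from those of the mutation.

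Phototropins are plasma membrane-associated protein kinases that are switched on by blue light. Phototropin 2 acts with phototropin 1 in phototropism, stomatal opening and leaf flattening, and it is the main receptor for the movement of chloroplasts away from strong light. UV-C is absorbed directly by DNA and proteins and sets off photooxidative stress in leaves, and stress of this kind is followed by waves of transcription in which abscisic acid, ethylene, salicylic acid and defense pathways all take part.

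Each library is described by reads per gene, and levels are given as CPM, the reads of a gene per 1e6 reads of a library whose size was adjusted by TMM. The *phot2* UV-C libraries held 21639362 to 25560151 reads assigned to genes and the wild-type UV-C libraries 20897905 to 24461667. Across genes, log levels correlated at 0.974 to 0.983 between a *phot2* and a wild-type library and at 0.987 to 0.990 between libraries of a genotype, and genes are not independent replicates. Summed over 5 mesophyll markers the level was 27470 to 30500 CPM in *phot2* and 29280 to 31870 CPM in wild type, both root hair genes *RHD6* and *EXPA7* were at 0 reads in all 6 libraries, and the 3 trichome genes summed to 2.44 to 3.03 CPM in *phot2* and 1.76 to 2.86 CPM in wild type. No tested marker gene was called by edgeR's quasi-likelihood test or DESeq2, and 1 flower marker was called by the likelihood ratio test. The markers were of mesophyll, guard cells, phloem, epidermis, trichomes, roots, flowers, seeds and dividing cells. Of the 4 root markers only 1 had enough reads to be tested, and of the 2 seed markers none. The 5 flower markers summed to 4.93 to 7.41 CPM in *phot2* and 2.996 to 4.11 CPM in wild type, without overlap. The 4 root markers summed to 363.5 to 477.5 CPM in *phot2* and 308.2 to 349.2 CPM in wild type, also without overlap. Of these root markers 3 had at most 3 reads in each of the 6 libraries, so that sum rests on a single gene. The part of the flower and root markers in the results was not tested. In a bulk rosette, fewer cells of a type and less RNA per cell cannot be told apart.

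The level of *PHOT2* itself checks the labels. It was 243, 224 and 241 CPM in the 3 *phot2* libraries, against 340, 364 and 375 CPM in the wild-type libraries, a log2 fold change (log2FC) of -0.61 ± 0.06 (SE, edgeR adjusted p = 5.94e-07). The groups did not overlap and the transcript was lower in the libraries labelled *phot2*, without reaching the fold set for a call. Another gene lies across *PHOT2* on the opposite strand, and the counts add both strands over all exons, so they do not show which part of the gene the mutation removed. *PHOT1*, the second phototropin, had 269, 258 and 289 CPM in *phot2* and 218, 258 and 252 CPM in wild type, and its log2FC of 0.17 ± 0.08 did not pass the test (edgeR adjusted p = 0.179). None of the 16 genes of phototropin signaling and chloroplast movement was called by edgeR's quasi-likelihood test, by the likelihood ratio test or by DESeq2. An unadjusted p under 0.05 was found for 2 of them, against 5803 of all 20094 genes tested.

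Most genes that differed were higher in *phot2*. Of 20094 protein-coding genes tested, all on nuclear chromosomes, 361 were called higher in *phot2* (1.8%) and 53 lower (0.264%), where called means a Benjamini-Hochberg adjusted p under 0.01 in edgeR's quasi-likelihood test and an absolute log2FC over 1. The median log2FC was 1.49 among the genes called higher and -1.24 among those called lower, against -0.003 over all genes tested. Without the fold limit the directions were closer in number, with 940 genes higher and 723 lower at an adjusted p under 0.01. The 3 *phot2* libraries all lay above the 3 wild-type libraries for 15.2% of the genes tested and all below for 14.3%, and this held for 359 of the 361 genes called higher and for all 53 genes called lower. Many of the called genes were weakly expressed: 106 of the 361 averaged under 1 CPM in wild type, and 12 of the 53 averaged under 1 CPM in *phot2*. The counts depended on single libraries, since 221 genes were called higher without wild-type replicate 3 and 239 without *phot2* replicate 1.

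**Figure D1:**
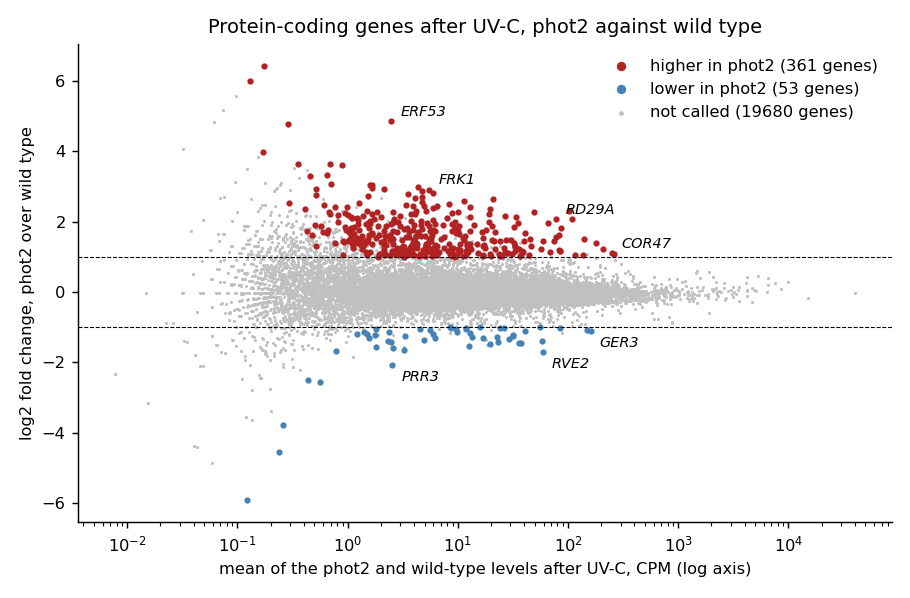
Each point is a protein-coding gene, placed by its mean level after UV-C (horizontal log axis, CPM) and by its log2 fold change of *phot2* over wild type (vertical axis), with dashed lines at 1 and -1. Red points are the 361 genes called higher in *phot2*, blue points the 53 called lower and grey points the other genes; *ERF53* stands highest among the called genes with a group mean of at least 1 CPM, and *PRR3* lowest.

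One group of rises was that of genes induced by abscisic acid, cold and dehydration. Of 34 tested members 10 rose in *phot2* (29.4%, against 1.8% of all genes tested), none fell, 32 had a log2FC above 0, and the median log2FC was 0.83, against -0.003 over all genes. These genes encode dehydrins and other hydrophilic proteins that protect cells losing water, enzymes that make protective sugars, and the transcription factors above them, and many carry in their promoters the dehydration-responsive element bound by the CBF and DREB factors or the G-box bound by abscisic acid-responsive bZIP factors. *RD29A*, the classical reporter gene of this pathway, had 181, 73.2 and 125 CPM in *phot2*, against 32.6, 41.8 and 15 CPM in wild type. The groups did not overlap, and the log2FC was 2.08 ± 0.32 (SE, edgeR adjusted p = 0.000124).

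The promoters of *RD29A* and *COR15A* are shown because both genes rose and both windows hold the motif named above. They are the 300 bases before the annotated start of *RD29A* (chr5:21240417-21240716, plus strand) and of *COR15A* (chr2:17712331-17712630, minus strand) in the RefSeq genome, build TAIR10.1, written 5′ to 3′ in the direction of the gene. Capitals mark the dehydration-responsive core CCGAC, on this strand or as GTCGG on the other, and the G-box CACGTG. *RD29A* holds 3 cores and no G-box, and *COR15A* holds 2 cores and 1 G-box.
RD29A promoter: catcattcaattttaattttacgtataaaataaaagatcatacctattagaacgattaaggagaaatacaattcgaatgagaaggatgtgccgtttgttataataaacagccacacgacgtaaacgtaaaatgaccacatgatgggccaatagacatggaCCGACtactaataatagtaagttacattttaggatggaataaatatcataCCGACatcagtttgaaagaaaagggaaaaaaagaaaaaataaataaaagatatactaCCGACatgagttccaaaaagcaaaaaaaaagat
COR15A promoter: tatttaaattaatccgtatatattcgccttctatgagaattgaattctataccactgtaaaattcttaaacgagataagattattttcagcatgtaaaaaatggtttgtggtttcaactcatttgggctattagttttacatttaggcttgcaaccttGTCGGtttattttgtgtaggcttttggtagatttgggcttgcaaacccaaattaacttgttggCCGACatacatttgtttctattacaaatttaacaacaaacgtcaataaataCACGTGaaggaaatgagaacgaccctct

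*COR15A*, which encodes a chloroplast protein that shields membranes in the cold, had 430, 121 and 235 CPM in *phot2* and 107, 102 and 90.0 CPM in wild type (log2FC 1.39 ± 0.32, edgeR adjusted p = 0.00488). The lowest *phot2* library lay only just above the highest wild-type library. The neighboring dehydrin genes *COR47* and *ERD10* varied less between replicates. *COR47* had 412, 297 and 323 CPM in *phot2* and 150, 200 and 129 CPM in wild type (log2FC 1.1 ± 0.14, edgeR adjusted p = 8.36e-06), and *ERD10* had 308, 298 and 263 CPM in *phot2* and 120, 139 and 116 CPM in wild type (log2FC 1.21 ± 0.13, edgeR adjusted p = 1.95e-06). For both, every *phot2* library lay well above every wild-type library.

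Among the enzymes and regulators of this group, *GOLS2* and *GOLS3* encode galactinol synthases, which open the synthesis of raffinose sugars. *GOLS2* had 12.2, 16.3 and 15.7 CPM in *phot2* and 3.32, 4.85 and 5.84 CPM in wild type (log2FC 1.67 ± 0.18, edgeR adjusted p = 2.34e-06), and *GOLS3* had 17.2, 8.96 and 14.5 CPM in *phot2* and 4.54, 3.83 and 3.91 CPM in wild type (log2FC 1.72 ± 0.25, edgeR adjusted p = 5.22e-05). *RD20*, a caleosin of lipid droplets, had 79.1, 43.8 and 52.8 CPM in *phot2*, against 21.6, 21.6 and 21.2 CPM in wild type (log2FC 1.45 ± 0.33). No library of *phot2* reached down to the wild-type range in these 3 genes. *KIN1*, the dehydrin *AT5G66400* and the transcription factor *CBF3* completed the called members, with log2FC of 1.74, 1.62 and 1.74. *CBF3* had 9.85, 13.3 and 5.76 CPM in *phot2* and 2.25, 3.17 and 3.25 CPM in wild type, while its neighbors *CBF1* (log2FC 0.90 ± 0.49) and *CBF2* (0.80 ± 0.37) did not pass the test. *CBF3* and *AT5G66400* overlap a gene on the other strand.

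Replicate 1 of *phot2* had the highest level of *RD29A*, *COR15A*, *COR47*, *ERD10*, *KIN1*, *GOLS3* and *RD20* among all 6 libraries. Without that library 6 members of the group were called, as without wild-type replicate 1 and without wild-type replicate 3. *KIN1* lost its call without *phot2* replicate 1 or wild-type replicate 3, *CBF3* without *phot2* replicate 2 or wild-type replicate 1, and *AT5G66400* without wild-type replicate 1. Single members were followed in these fits only for the 6 with the largest change. The gene of the abscisic acid-making enzyme *NCED3* averaged 8.96 ± 1.13 CPM in *phot2* and 8.98 ± 1.75 CPM in wild type (SD, n = 3 each), with a log2FC of 0.00 ± 0.42, and *RD29B*, a late abscisic acid-induced gene, had at most 0.64 CPM in any of the 6 libraries. Genes outside the list, picked after their values were seen, include *P5CS1*, the rate-limiting enzyme of proline synthesis, and *ERD5*, the proline dehydrogenase that breaks proline down. *P5CS1*, which shares sequence with an opposite-strand gene, averaged 351 ± 59.7 CPM in *phot2* and 167 ± 23.5 CPM in wild type (SD, n = 3 each), without overlap (log2FC 1.07 ± 0.19, edgeR adjusted p = 0.000402). *ERD5* moved the other way, with 111, 70.2 and 105 CPM in *phot2* and 197, 164 and 246 CPM in wild type (log2FC -1.09 ± 0.22, edgeR adjusted p = 0.0017).

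**Figure D2:**
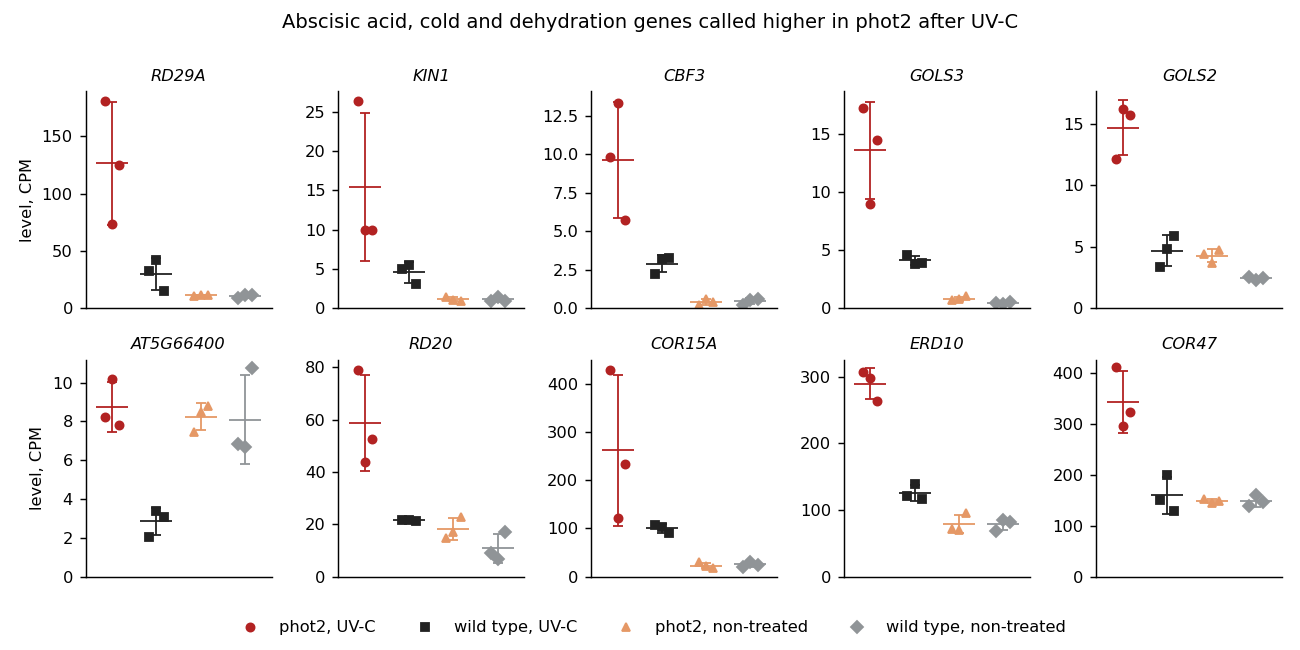
Level in CPM of the 10 called genes of the abscisic acid, cold and dehydration list, 1 panel per gene with its own linear axis from 0, in *phot2* after UV-C, wild type after UV-C, non-treated *phot2* and non-treated wild type. Points are libraries, and bars are the mean and SD of 3 libraries; after UV-C each *phot2* library lies above each wild-type library, and in 8 of the 10 genes the non-treated libraries of the genotypes overlap.

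The largest rise among called genes with a group mean of at least 1 CPM was that of *ERF53*, an AP2/ERF transcription factor gene induced by drought. It had 4.39, 4.63 and 5.42 CPM in *phot2*, against 0.0468, 0.280 and 0.165 CPM in wild type. The groups were far apart, and the log2FC was 4.84 ± 0.64 (SE, edgeR adjusted p = 2.11e-05). Its closest relative *ERF54* had 3.92, 2.34 and 2.65 CPM in *phot2* and 0.281, 0.560 and 0.276 CPM in wild type (log2FC 2.96 ± 0.48, edgeR adjusted p = 0.000193). Across the list of ERF and DREB factors, which does not hold *ERF54*, 3 of 34 members rose (*ERF53*, *CBF3* and *ERF9*) and none fell. Of all genes tested 1.8% rose and 0.264% fell. Both *ERF53* and *ERF54* kept their call without any of the 6 libraries. The *ERF53* promoter (chr2:8985659-8985958, plus strand) is shown because it holds a dehydration-responsive core and an evening element, AAAATATCT, here as AGATATTTT on the other strand, both in capitals.
ERF53 promoter: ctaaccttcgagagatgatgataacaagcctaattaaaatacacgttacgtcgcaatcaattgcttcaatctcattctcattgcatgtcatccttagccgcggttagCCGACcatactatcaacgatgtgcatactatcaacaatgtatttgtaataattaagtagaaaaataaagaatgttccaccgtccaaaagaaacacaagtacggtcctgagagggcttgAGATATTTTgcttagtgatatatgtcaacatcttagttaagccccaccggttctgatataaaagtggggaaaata

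Some of the genes that fell belong to the circadian clock. In the clock, morning genes such as *CCA1*, *LHY* and the REVEILLE factors and evening genes such as *TOC1*, *PRR3*, *LUX*, *BOA*, *ELF4* and *GI* repress or activate each other in turn over the day. The evening element is the motif through which *CCA1* and *LHY* hold evening genes down. After UV-C, 3 of 14 evening genes fell in *phot2* (21.4%, against 0.264% of all genes), none rose, and the median log2FC was -0.17. *PRR3*, a pseudo-response regulator that protects *TOC1* from breakdown, had 0.741, 0.896 and 1.24 CPM in *phot2*, against 4.21, 3.83 and 4.3 CPM in wild type. It was the largest fall among called genes with a group mean of at least 1 CPM, with a log2FC of -2.07 ± 0.19 (SE, edgeR adjusted p = 2.34e-07).

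*BOA*, a GARP factor that binds the *CCA1* promoter, had 1.69, 1.69 and 1.32 CPM in *phot2* and 5.34, 4.43 and 4.85 CPM in wild type (log2FC -1.64 ± 0.20, edgeR adjusted p = 6.73e-06). Its relative *LUX*, part of the evening complex, had 3.07, 2.84 and 2.90 CPM in *phot2* and 6.27, 6.53 and 5.40 CPM in wild type (log2FC -1.05 ± 0.26, edgeR adjusted p = 0.00739). The groups did not overlap in either gene, both overlap a gene on the other strand, and *LUX* lost its call when any of the 6 libraries was left out. *PRR3* and *BOA* lie within 2 Mb of *PHOT2*, where the mutation and linked sequence cannot be told apart. Evening genes other than *PRR3*, *BOA* and *LUX* were not called. *TOC1* had 17.4, 16.8 and 17.3 CPM in *phot2* and 23.8, 19.3 and 19.9 CPM in wild type (log2FC -0.29 ± 0.11, edgeR adjusted p = 0.0657), and *GI* had a log2FC of 1.25 ± 0.47 (edgeR adjusted p = 0.0734).

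The promoter of *BOA* (chr5:24003588-24003887, plus strand) is shown because 6 of the 14 evening promoters hold an evening element (42.9%), against 2.92% of all promoters. Capitals mark its G-box CACGTG and its evening element, which lies on the other strand as AGATATTTT.
BOA promoter: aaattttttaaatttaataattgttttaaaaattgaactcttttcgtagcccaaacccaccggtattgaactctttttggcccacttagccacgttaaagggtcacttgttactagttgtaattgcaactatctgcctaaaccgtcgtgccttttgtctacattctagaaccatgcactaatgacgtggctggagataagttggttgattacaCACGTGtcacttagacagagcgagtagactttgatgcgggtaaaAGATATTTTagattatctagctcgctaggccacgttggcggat

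Of the 12 morning genes 1 fell, against 0.264% of all genes tested, and none rose. This was *RVE2*, a MYB-like factor of the *CCA1* family, with 25.7, 31.0 and 26.2 CPM in *phot2* and 86.3, 101 and 83.4 CPM in wild type (log2FC -1.71 ± 0.12, edgeR adjusted p = 1.05e-08). Every wild-type library lay over 2 times above every *phot2* library. The core pair *CCA1* and *LHY* did not pass the test. *CCA1* had 444, 430 and 472 CPM in *phot2* and 372, 383 and 388 CPM in wild type (log2FC 0.24 ± 0.24, edgeR adjusted p = 0.555), and *LHY* had 656, 589 and 692 CPM in *phot2* and 674, 695 and 664 CPM in wild type (-0.07 ± 0.11, edgeR adjusted p = 0.731). *PRR7* had 47.8, 43.9 and 51.8 CPM in *phot2* and 24, 24.2 and 24 CPM in wild type, and its log2FC of 0.99 ± 0.30 did not pass the test (edgeR adjusted p = 0.0249).

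Further genes whose transcripts are known to cycle, outside the clock lists, were also called lower, *GRP7* and *GER3* being picked after their values were seen. *COL9*, a CONSTANS-like regulator that delays flowering, had 9.21, 9.90 and 11.6 CPM in *phot2* and 26.4, 30.3 and 29.4 CPM in wild type (log2FC -1.48 ± 0.13, edgeR adjusted p = 1.59e-07). *GRP7*, a clock-controlled RNA-binding protein, had 47.5, 55.9 and 62.2 CPM in *phot2* and 119, 107 and 112 CPM in wild type (log2FC -1.02 ± 0.11), and *GER3*, a germin-like protein, had 98.8, 108 and 97.0 CPM in *phot2* and 227, 210.3 and 220.2 CPM in wild type (log2FC -1.11 ± 0.09). In these 3 genes, as in *PRR3*, *RVE2* and *BOA*, no library of *phot2* overlapped a library of wild type.

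**Figure D3:**
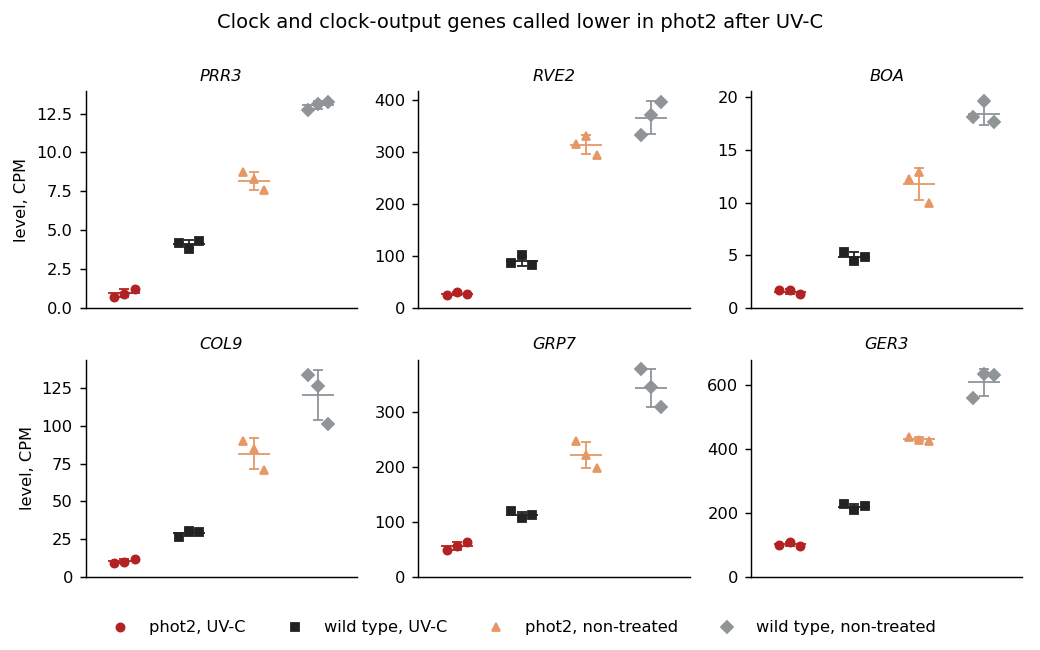
Level in CPM of *PRR3*, *RVE2*, *BOA*, *COL9*, *GRP7* and *GER3*, 1 panel per gene with its own linear axis from 0, in *phot2* after UV-C, wild type after UV-C, non-treated *phot2* and non-treated wild type. Points are libraries, and bars are the mean and SD of 3 libraries; *phot2* lies below wild type in both treatments, and the levels are lower in the UV-C libraries of both genotypes.

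Cell surface receptors and defense genes made up a further group of rises. Plants detect microbes and damage through receptor kinases and receptor-like proteins at the plasma membrane, which start kinase cascades and WRKY transcription factors, and salicylic acid then amplifies the response. Of 40 cysteine-rich receptor-like kinases (CRKs) 10 rose in *phot2* (25%, against 1.8% of all genes tested), none fell, and the median log2FC was 0.54. *CRK15*, with 3.39, 2.84 and 3.80 CPM in *phot2* and 0.843, 1.45 and 1.05 CPM in wild type, had a log2FC of 1.58 ± 0.29 (SE, edgeR adjusted p = 0.000655). *CRK24* had 1.75, 1.54 and 1.71 CPM in *phot2* and 0.328, 0.233 and 0.551 CPM in wild type (log2FC 2.19 ± 0.32, edgeR adjusted p = 6.83e-05). Neither gene's groups overlapped, and both kept their call without any library.

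*ARCK1*, a CRK-type kinase induced by abscisic acid and osmotic stress, had a log2FC of 2.45 ± 0.49, kept its call in the same fits and overlaps an opposite-strand gene. Other members were less firm, as *CRK37* (3.03 ± 0.72), *CRK20* (1.94 ± 0.46) and *CRK36* (1.79 ± 0.41) each lost the call in 5 of the 6 fits that left out a library. Between 5 and 7 members of the family were called in those fits, with 6 without *phot2* replicate 1, 5 without *phot2* replicate 2, 5 without wild-type replicate 1 and 5 without wild-type replicate 3. Counts of such closely related, often neighboring genes are uncertain, because reads matching several genes were dropped.

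Wall-associated kinases, which bind pectin, rose in 3 of 11 cases, namely *WAKL4* (log2FC 2.08 ± 0.38), *WAKL10* (1.92 ± 0.42) and *WAK1* (1.05 ± 0.23). Over all genes tested 1.8% were called higher, the share to set beside each family of this paragraph. Only *WAKL4* kept its call in all 6 fits that left out a library, and 1 member of the group was called without *phot2* replicate 1, wild-type replicate 1 or wild-type replicate 2. *WAKL4* had 3.44, 2.94 and 2.01 CPM in *phot2* and 0.609, 0.793 and 0.551 CPM in wild type. Receptor-like proteins rose in 6 of 46 cases, among them *RLP21*, with 3.97, 5.37 and 3.12 CPM in *phot2* and 1.31, 0.606 and 1.21 CPM in wild type (log2FC 1.99 ± 0.30, edgeR adjusted p = 8.14e-05), and 2 were called without *phot2* replicate 1. Glutamate receptor-like channels, which carry calcium in wound signaling, rose in 3 of 16 cases: *GLR2.9* had 1.48, 1.19 and 0.896 CPM in *phot2* and 0.234, 0 and 0.110 CPM in wild type (log2FC 3.32 ± 0.61), *GLR2.7* had 21, 19.6 and 24.4 CPM in *phot2* and 7.58, 9.66 and 8.21 CPM in wild type (1.35 ± 0.16), and *GLR2.5*, which overlaps genes on both strands, had a log2FC of 2.14 ± 0.43 and lost its call without wild-type replicate 2.

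*FRK1*, a receptor kinase gene used as a marker of pattern-triggered immunity, had 10.8, 10.6 and 7.73 CPM in *phot2* and 1.83, 1.12 and 0.882 CPM in wild type. The groups did not overlap (log2FC 2.91 ± 0.35, edgeR adjusted p = 6.29e-06), and *FRK1* overlaps a gene on the other strand. It was the only called member of 18 in the pattern-triggered immunity list, where 2 were called without *phot2* replicate 3. Grouping genes by the product names of the RefSeq annotation, which was done with the calls in view, put 12 of 123 leucine-rich repeat kinases among the genes called higher (9.76%, against 1.8% of all genes tested) and none among those called lower, and their median log2FC was 0.01. Among them, *IOS1*, a kinase of the malectin-like class, had 18.7, 17.9 and 13.6 CPM in *phot2* and 3.51, 3.92 and 2.81 CPM in wild type (log2FC 2.28 ± 0.26, edgeR adjusted p = 3.9e-06). Close to it on chromosome 1, *AT1G51820*, *AT1G51850*, *AT1G51860* and *AT1G51890* and the small gene *AT1G51913* formed a run of 5 adjacent tested genes that were all called higher.

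WRKY transcription factors, which bind the W-box, rose in 11 of 60 cases, against 1.8% of all genes tested, and fell in none, with a median log2FC of 0.28. *WRKY71* had 2.96, 3.13 and 1.79 CPM in *phot2* and 0.328, 0.327 and 0.551 CPM in wild type (log2FC 2.71 ± 0.37, edgeR adjusted p = 3.07e-05), and *WRKY8* had 3.02, 2.14 and 2.31 CPM in *phot2* and 0.702, 0.513 and 0.276 CPM in wild type (log2FC 2.29 ± 0.31, edgeR adjusted p = 2.46e-05). *WRKY65* (1.4 ± 0.23) was called as well, while *WRKY72* (2.75 ± 0.67) and *WRKY61* (1.74 ± 0.42, overlapping a gene on the other strand) each lost the call in 5 of the 6 fits that left out a library. The number of WRKY genes called was 6 without wild-type replicate 3 and 7 without *phot2* replicate 1. Among NAC factors 5 of 75 rose and among MYB factors 6 of 81, against the same 1.8%, and no member of either family fell. NAC calls numbered 3 without *phot2* replicate 1 or wild-type replicate 1 and 2 without wild-type replicate 3. MYB calls numbered 3 without *phot2* replicate 1 or 2, 2 without wild-type replicate 1 and 1 without wild-type replicate 3.

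The W-box stood in a larger share of the promoters of genes that rose than of all genes, a difference that was not tested. Written TTGACC or TTGACT on either strand, it was found in the 300 bases before the start of 49.6% of the 361 genes called higher, 24.5% of the 53 called lower and 32.0% of all tested genes with a promoter window. The promoters of *FRK1* and of the defense gene *GSTF7*, which both rose, are shown with their W-boxes in capitals, at *FRK1* (chr2:8329945-8330244, minus strand) and *GSTF7* (chr1:659981-660280, minus strand). *FRK1* holds 2 W-boxes and *GSTF7* holds 3, the middle one, on the other strand as GGTCAA, overlapping a dehydration-responsive core written GTCGG.
FRK1 promoter: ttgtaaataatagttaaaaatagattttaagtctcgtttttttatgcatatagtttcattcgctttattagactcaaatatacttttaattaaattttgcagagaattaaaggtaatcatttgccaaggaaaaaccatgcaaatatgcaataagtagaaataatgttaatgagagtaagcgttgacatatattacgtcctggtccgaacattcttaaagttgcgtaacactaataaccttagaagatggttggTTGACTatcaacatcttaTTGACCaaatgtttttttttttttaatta
GSTF7 promoter: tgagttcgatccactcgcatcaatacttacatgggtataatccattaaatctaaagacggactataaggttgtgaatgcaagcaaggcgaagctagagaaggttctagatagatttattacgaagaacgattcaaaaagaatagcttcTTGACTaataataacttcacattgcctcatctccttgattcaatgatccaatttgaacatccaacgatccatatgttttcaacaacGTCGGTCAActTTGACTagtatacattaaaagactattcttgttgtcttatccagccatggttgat

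*GSTF7*, a glutathione S-transferase of the phi class, had 128, 106 and 80.4 CPM in *phot2* and 28.6, 32.5 and 18.9 CPM in wild type (log2FC 1.96 ± 0.30, edgeR adjusted p = 8.94e-05). Its neighbor *GSTF6* had 157, 132 and 87.7 CPM in *phot2* and 43.7, 42.3 and 37.4 CPM in wild type (log2FC 1.61 ± 0.31, edgeR adjusted p = 0.000961). Both genes were separated between the genotypes. With *GSTF3* they were the only called members among 45 glutathione S-transferases, with 6 called without *phot2* replicate 3 or wild-type replicate 2. Of all genes tested 1.8% were called higher.

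The salicylic acid list was mixed. Of 25 members 3 rose, against 1.8% of all genes tested, and none fell. The median log2FC was 0.11, against -0.003 over all genes, and 18 of the 25 were above 0. In the non-treated plants the list median was 0.61, against -0.005 over all genes, and 24 of the 25 were above 0. There 2 members were called higher, against 0.746% of all genes tested, and none lower. *ACD6*, a membrane protein that promotes salicylic acid signaling and cell death, had 62.8, 37.8 and 64.8 CPM in *phot2*, against 9.88, 15.3 and 12.8 CPM in wild type (log2FC 2.12 ± 0.26, edgeR adjusted p = 8.29e-06), and it was called in every fit that left out a library. *PR2*, a secreted glucanase, had 49.3, 60.2 and 43.7 CPM in *phot2* and 10.9, 21.3 and 10.14 CPM in wild type (log2FC 1.84 ± 0.43, edgeR adjusted p = 0.00474), and it lost the call without either of *phot2* replicates 1 and 2 or wild-type replicates 1 and 3. *DMR6*, which hydroxylates salicylic acid, had a log2FC of 1.17 ± 0.30 and lost its call in each of the 6 fits, and 1 member of the list was called without *phot2* replicate 1, *phot2* replicate 2, wild-type replicate 1 or wild-type replicate 3. The signaling lipase-like gene *PAD4* (log2FC -0.12 ± 0.08) and *PR1* (-1.17 ± 0.86) did not pass the test, and *PR1* overlapped between the groups, with 8.79, 3.53 and 3.71 CPM in *phot2* and 5.95, 25.6 and 3.58 CPM in wild type.

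Some genes of the cell wall and secondary metabolism also rose, again grouped by product name with the calls in view. Secreted class III peroxidases, which use hydrogen peroxide to cross-link wall polymers, rose in 8 of 46 cases, berberine-type FAD oxidases in 6 of 19 and small O-methyltransferases in 5 of 20, each set against 1.8% of all genes tested. Other wall groups are set against the same 1.8% called higher and 0.264% called lower. Of 93 pectin methylesterases, their inhibitors and pectin lyases 7 rose (7.53%) and none fell. Of 115 extensins, arabinogalactan and hydroxyproline-rich proteins 6 rose (5.22%) and 1 fell, and of 24 xyloglucan endotransglucosylases 1 rose and 1 fell. None of 17 expansins was called by edgeR (quasi-likelihood or likelihood ratio) or by DESeq2. An unadjusted p under 0.05 was found for 5 expansins, against 5803 of all 20094 genes tested. The peroxidase gene *AT5G64120* had 172, 229.8 and 129 CPM in *phot2* and 50.5, 38.2 and 36.6 CPM in wild type (log2FC 2.08 ± 0.28, edgeR adjusted p = 2.07e-05), and *EXT4*, an extensin of the wall, had 212, 219.5 and 188 CPM in *phot2* and 76.1, 64.2 and 79.0 CPM in wild type (log2FC 1.5 ± 0.11, edgeR adjusted p = 1.67e-08). The berberine-type gene *AT1G30720* had 36.4, 34.7 and 28.5 CPM in *phot2* and 10.8, 9.19 and 10.5 CPM in wild type (log2FC 1.71 ± 0.19, edgeR adjusted p = 2.12e-06). *AZI1* and *EARLI1*, lipid-transfer proteins linked to systemic immunity, stand beside *AT4G12490* and *AT4G12500* on chromosome 4, and all 4 were called higher. *EARLI1* overlaps an opposite-strand gene. *AZI1* had 51.6, 69.2 and 47.9 CPM in *phot2* and 14.5, 17 and 11.5 CPM in wild type (log2FC 1.97 ± 0.22, edgeR adjusted p = 2.7e-06), and the indole glucosinolate methyltransferase genes *IGMT1*, *IGMT2* and *IGMT3* on chromosome 1 were a further run of 3. No library of *phot2* overlapped a library of wild type in any of the genes given here by library.

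**Figure D4:**
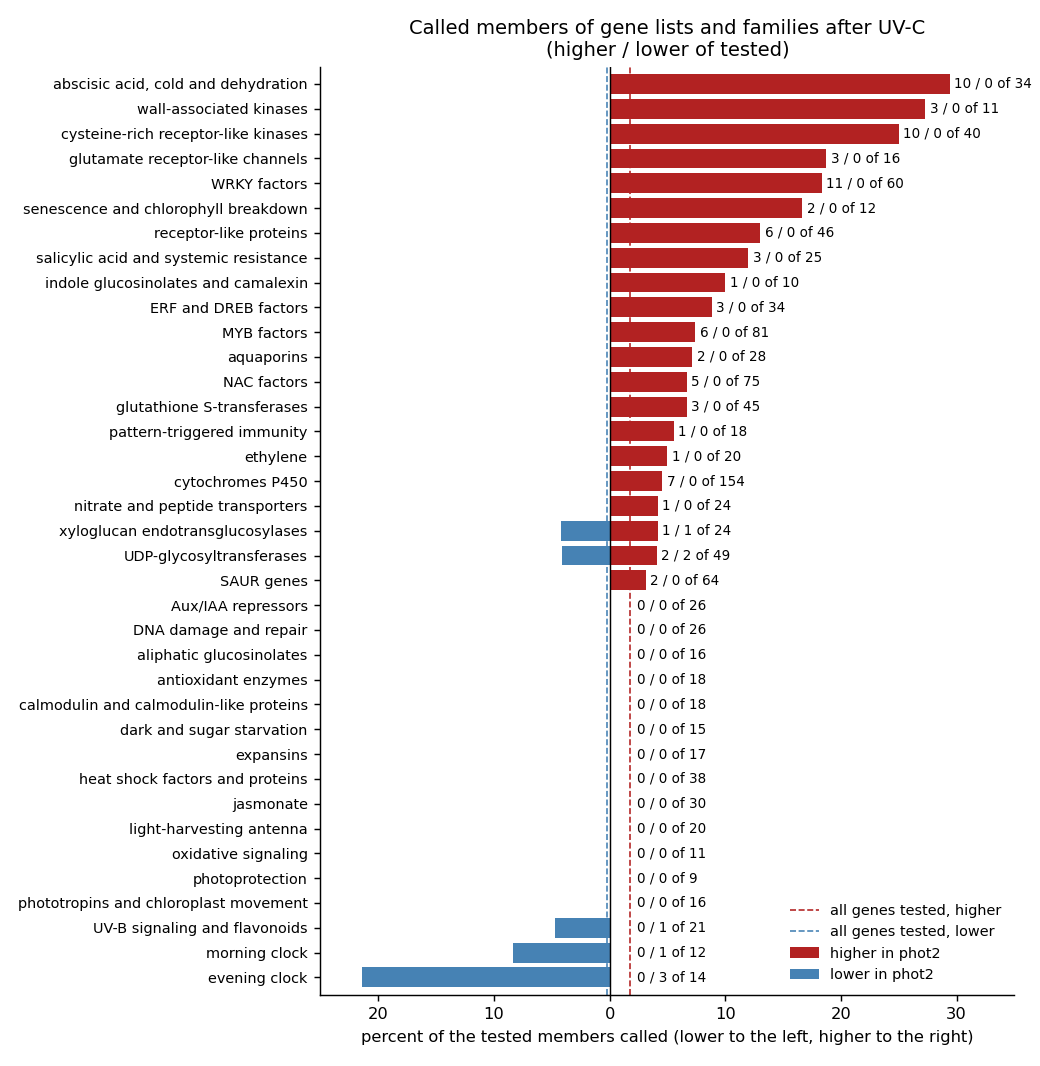
Percent of tested members called after UV-C in each gene list or family with at least 8 tested members, higher in *phot2* to the right in red and lower to the left in blue, with the numbers called higher and lower of those tested beside each bar. Dashed lines mark the percent called over all genes, 1.8 higher and 0.264 lower; among the lists drawn, which leave out the marker lists, the genes named in the study and the groups made by product name, the abscisic acid, cold and dehydration list reaches farthest to the right and the evening clock farthest to the left.

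Outside the clock, *C/VIF2*, which encodes an inhibitor of the invertases that split sucrose, had 19.5, 18.4 and 19 CPM in *phot2*, against 49.6, 55.0 and 52.0 CPM in wild type (log2FC -1.46 ± 0.08, edgeR adjusted p = 9.85e-11). *SWEET12*, a sucrose exporter of the phloem, had 22.0, 15.1 and 19.2 CPM in *phot2* and 56.1, 35.8 and 40.8 CPM in wild type (log2FC -1.24 ± 0.16, edgeR adjusted p = 1.89e-05). Both genes were separated between the genotypes. *SWEET12* was picked after its values were seen.

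Among enzymes of anthocyanin synthesis, *LDOX* (log2FC -1.13 ± 0.26, edgeR adjusted p = 0.00381) and the sugar transferase *UF3GT* (-1.38 ± 0.33, edgeR adjusted p = 0.00631) fell. *UF3GT* lies within 2 Mb of *PHOT2*, where the mutation and linked sequence cannot be told apart. *LDOX* had 10.3, 4.08 and 4.1 CPM in *phot2* and 15, 11.3 and 13.6 CPM in wild type. *MYBL2*, a repressor of that pathway picked after its values were seen, rose, with 47.5, 45.0 and 49.0 CPM in *phot2* and 18.4, 21.1 and 18.8 CPM in wild type (log2FC 1.28 ± 0.10, edgeR adjusted p = 4.16e-08). *LDOX* lost its call without *phot2* replicate 2, *phot2* replicate 3, wild-type replicate 1 or wild-type replicate 3, and *UF3GT* lost its call without any library but *phot2* replicate 1. *LDOX* was the only called member among 21 genes of UV-B signaling and flavonoid synthesis, where 0.264% of all genes tested were called lower and 1.8% higher. Of these 21 genes 2 were called without *phot2* replicate 1 or wild-type replicate 2.

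The study singled out a set of genes in its UV-C comparison, and since it chose them on these samples their direction is not independent evidence. Of 14 such genes tested 9 were called higher and 2 lower. *ARP9*, an actin-related protein, had 18.6, 21.2 and 20.4 CPM in *phot2* and 58.0, 53.6 and 52.1 CPM in wild type (log2FC -1.44 ± 0.07, edgeR adjusted p = 7.21e-12), and the RING ubiquitin ligase gene *ATL78*, which shares sequence with an opposite-strand gene, had 1.06, 0.796 and 2.18 CPM in *phot2* and 4.12, 3.78 and 3.03 CPM in wild type (log2FC -1.41 ± 0.27, edgeR adjusted p = 0.00111). The genotypes did not overlap in either gene. *NAP*, a NAC factor of leaf senescence, had 54.9, 40.9 and 40.0 CPM in *phot2* and 19.9, 21.5 and 19.6 CPM in wild type (log2FC 1.15 ± 0.20, edgeR adjusted p = 0.000342) and lost the call without *phot2* replicate 1 (log2FC 0.99). The early dehydration-responsive family gene *AT3G54510* (1.09 ± 0.18), overlapping an opposite-strand gene, lost it without *phot2* replicate 3 or wild-type replicate 3, and the PLAC8 family gene *AT1G52200* (1.22 ± 0.16), which overlaps a gene on its own strand, kept it throughout. *GSTU17*, in contrast, had 78.3, 23.5 and 28.7 CPM in *phot2* and 9.18, 26.2 and 9.15 CPM in wild type, with overlapping groups, and its log2FC of 1.53 ± 0.43 did not pass the test (edgeR adjusted p = 0.0178), although it was called without *phot2* replicate 2 or wild-type replicate 2.

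Several stress and light pathways held no gene called by the quasi-likelihood test. Of all 20094 genes tested, 5803 had an unadjusted p under 0.05, the share to set beside each count at that limit below. Among 26 genes of DNA damage and repair none was called by edgeR's quasi-likelihood test, 1 by the likelihood ratio test, 1 by DESeq2 and 7 at an unadjusted p under 0.05, with a median log2FC of -0.01. Without wild-type replicate 1 the quasi-likelihood test called 1 of them. None of 18 antioxidant enzymes was called by any of the 3 tools (7 at an unadjusted p under 0.05), nor of 20 light-harvesting antenna genes (10 at an unadjusted p under 0.05, median log2FC 0.18), 9 photoprotection genes (4), 38 heat shock factors and proteins (6) or 30 jasmonate genes (4). Of 11 oxidative signaling genes none was called by the quasi-likelihood test or DESeq2, and 1 by the likelihood ratio test, with 4 at an unadjusted p under 0.05. Of the 20 antenna genes 15 had a log2FC above 0, against 49.3% of all genes tested. At an adjusted p under 0.01 without the fold limit 2 were higher, against 940 of all 20094 genes. All *phot2* libraries lay above all wild-type libraries for 11 of the 20 and below for 0, against 15.2% and 14.3% of all genes tested. In non-treated plants 4 antenna genes were called higher, against 0.746% of all genes tested, and 0 lower. The antenna gene *LHCB1.1* had 11140, 11240 and 10060 CPM in *phot2* and 8145, 9145 and 9273 CPM in wild type after UV-C. Its groups did not overlap, and its log2FC of 0.29 ± 0.14 did not pass the test (edgeR adjusted p = 0.177). The 313 ribosomal protein genes and 42 proteasome genes also held none by any of the 3 tools, with 65 and 4 at an unadjusted p under 0.05.

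Without UV-C, *phot2* and wild type differed in fewer genes, of which 150 were called higher (0.746%) and 17 lower (0.0846%). That is 167 genes in all, where the likelihood ratio test called 350, DESeq2 254 and the quasi-likelihood test 53 in a fit of the non-treated libraries of both genotypes alone. Of the 361 genes called higher after UV-C, 87 were also called higher in the non-treated libraries (24.1% of the UV-C list and 58% of the non-treated list), and 332 had a non-treated log2FC above 0, with a median of 0.86. Of the 53 called lower, 6 were also called lower (11.3% and 35.3%), and 37 had a non-treated log2FC below 0, with a median of -0.23. No gene was called in opposite directions. *FRK1*, *WRKY71*, *WRKY8*, *CRK24*, *RLP21*, *WAKL4*, *IOS1*, *AZI1*, *EARLI1* and *AT5G64120* were all called higher in both treatments. *FRK1* had 1.64, 2.67 and 4.26 CPM in non-treated *phot2* and 0.272, 0.522 and 0.732 CPM in non-treated wild type, and the CRK family as a whole had a median log2FC of 0.54 after UV-C and 0.51 in the non-treated plants.

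The abscisic acid, cold and dehydration list held no called member in the non-treated plants, and its median log2FC there was 0.21. *RD29A* had 10.8, 11.3 and 11.7 CPM in non-treated *phot2* and 8.83, 11.9 and 11.7 CPM in non-treated wild type, overlapping ranges. Whether the difference between the genotypes itself changed with UV-C was tested by the interaction, the UV-C effect in *phot2* minus the UV-C effect in wild type. It was called for 74 genes, 40 higher (0.199%) and 34 lower (0.169%), including 27 of the 361 genes called higher after UV-C and 11 of the 53 called lower. The likelihood ratio test called 217 genes and DESeq2 133. The interaction was called for *COR47* (log2FC 1.11, edgeR adjusted p = 0.00215) and *ERD10* (1.2, edgeR adjusted p = 0.000883), was 2.01 for *RD29A* without a call (edgeR adjusted p = 0.0184), and was called for no CRK or WRKY gene that rose after UV-C. Other called interactions among genes that rose were those of *ERF53* (5.27, edgeR adjusted p = 0.00352), the sugar alcohol transporter *PMT6* (1.68, edgeR adjusted p = 8.65e-05) and *MYBL2* (1.4, edgeR adjusted p = 1.4e-05). Without wild-type replicate 3 the interaction was called for 47 genes, without wild-type replicate 1 for 48, and without replicate 2 of either genotype for 49.

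**Figure D5:**
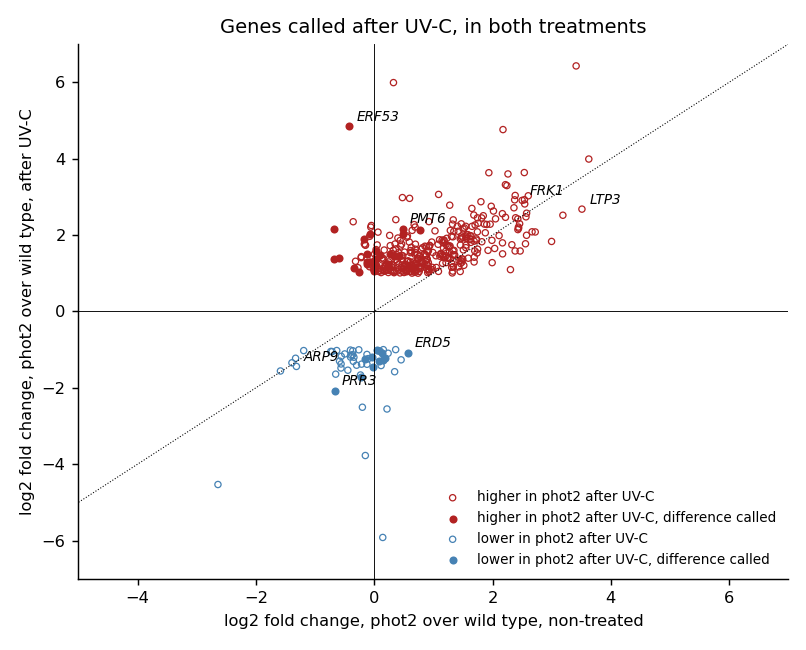
Each point is a gene called after UV-C, placed by its log2 fold change of *phot2* over wild type in non-treated rosettes (horizontal axis) and after UV-C (vertical axis), with a dotted line of equal change. Red points were called higher and blue points lower after UV-C, and filled points are the 27 and 11 genes whose interaction was also called; 332 of the 361 red points lie right of 0.

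Clock genes behaved unevenly between the treatments. In non-treated plants 4 of 14 evening genes were called lower, against 0.0846% of all genes tested, and the median log2FC of the list was -0.66. Of 12 morning genes 3 were called higher there, against 0.746% of all genes tested, with a list median of 0.92. The median over all genes in the non-treated plants was -0.005. *TOC1* had 54.8, 52.8 and 48.8 CPM in non-treated *phot2* and 93.6, 89.2 and 92.4 CPM in non-treated wild type (log2FC -0.81), *ELF4* and *FKF1* were called lower there, and *CCA1* was called higher (1.22). The morning gene *LHY* had 627, 681 and 746 CPM in non-treated *phot2* and 293, 309 and 441 CPM in non-treated wild type, while its libraries overlapped after UV-C, and its interaction was called (log2FC -1.05, edgeR adjusted p = 0.00066). *RVE2*, *PRR3* and *C/VIF2* differed more after UV-C than without it, with called interactions of -1.49, -1.4 and -1.43, while that of *COL9* (-0.92) fell short of the fold limit and those of *BOA* (-0.99, edgeR adjusted p = 0.0232) and *GRP7* (-0.39, edgeR adjusted p = 0.226) did not pass the test. *RVE2* had 315, 331 and 295 CPM in non-treated *phot2* and 333, 371 and 395 CPM in non-treated wild type. The UV-C libraries held 97.2 to 97.7% of their reads on nuclear chromosomes, against 99.97 to 99.98% in the non-treated libraries, which were deeper, with 34496078 to 41902444 reads. The part of depth, of organelle reads and of the time of harvest in the interaction was not tested.

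Genes close to *PHOT2* on chromosome 5 were counted separately. Within 2 Mb of *PHOT2*, 21 of 871 tested genes were called after UV-C (2.41%, 17 higher and 4 lower), and elsewhere 393 of 19222 (2.04%). The gene with the smallest p of the whole comparison lies there, and it is described for that reason. It is *ckl12*, a casein kinase gene 0.456 Mb from *PHOT2*, with 176, 170.1 and 162 CPM in *phot2* and 36.7, 33.5 and 33.5 CPM in wild type (log2FC 2.29 ± 0.10, edgeR adjusted p = 3.03e-12). The non-treated plants gave 138, 149 and 137 CPM in *phot2* and 25.2, 25.7 and 26.5 CPM in wild type, a log2FC of 2.46. *PRR3* (0.671 Mb) and *BOA* (0.477 Mb) are in the same window, as is *LTP3*, a lipid transfer protein gene 0.401 Mb away (log2FC 2.68 ± 0.58). Whether these genes differ through the mutation or through linked sequence cannot be told apart here. The share of genes called was similar on the 5 chromosomes, 1.48% on chromosome 3 and 2.14 to 2.32% on the others.

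Shares of the other motifs were counted in the same windows. The G-box CACGTG stood in 9.97% of the promoters of genes called higher, 13.2% of those called lower and 8.02% of all, the GCC-box GCCGCC in 1.39%, 1.89% and 2.33%, and the dehydration-responsive core CCGAC in 13.3%, 15.1% and 14.8%. The evening element was found in 3.6% of the promoters of genes called higher, 15.1% of those called lower (8 of 53) and 2.92% of all. Within the abscisic acid, cold and dehydration list, 29.4% of 34 promoters held a G-box and 26.5% a dehydration-responsive core, and 4 of the 10 called members held each. These shares describe letters in a fixed window and were not tested.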

How the data were processed

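Reads per gene were measured by RNA-Seq in 24 libraries of Arabidopsis rosettes, 3 for each of 4 genotypes with and without UV-C; genotype, treatment and replicate came from the sample labels. The authors purified poly-A RNA, made stranded libraries, sequenced them as paired ends, aligned with STAR 2.5.2b and deposited raw counts per gene from featureCounts (Subread 1.6.2) over Araport11 exons. The command in the table's header sets neither strand nor multi-mapping, so both strands were added, and overlapping genes, antisense pairs and close paralogs have uncertain counts.

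Genes entered the test if protein-coding and counted 5 times or more in 6 or more libraries, and were tested with edgeR 4.0.16 (TMM, quasi-likelihood F-test) in R 4.3.3, in 1 fit of the 8 groups, while the study used likelihood ratio tests. Adjusted p-values are Benjamini-Hochberg values over all 20094 genes, and p-values measure only the spread between these samples. SE is the absolute log2FC divided by the root of F. The log levels that were correlated between libraries carry a prior count of 2, which does not enter the log2FC. The alternatives were the likelihood ratio test with robust dispersions, DESeq2 1.42.0, RLE scaling, other filters, all gene types, only the 6 libraries, replicate blocks and leaving out each library. The test was tried on simulated data.

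Members and lists were chosen with earlier results of these data known. Named genes were the phototropins, genes the study named, the 12 largest rises and falls among called, separated genes with at least 1 CPM, and up to 6 called members of each list (for lists with none, that with the smallest adjusted p); others are given as picked after their values were seen or stand with their list. Gene names, positions and promoters (300 bases) came from RefSeq TAIR10.1: 37517 of 37813 identifiers matched, 37469 with the same start and end. Product names were matched by keyword.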

Additional observations from a re-analysis of the deposited data

Results flagged for a closer look

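For 8 of the named genes the difference between *phot2* and wild type itself changed with UV-C, as judged by the interaction in edgeR's quasi-likelihood test (UV-C effect in *phot2* minus UV-C effect in wild type, called at an adjusted p under 0.01 and an absolute log2 difference over 1). The UV-C effect was more negative in *phot2* for *RVE2* (-1.49), *C/VIF2* (-1.43) and *PRR3* (-1.40). It was more positive for the tonoplast aquaporin gene *TIP2;2* (1.11), the cytochrome P450 gene *CYP71B26* (1.34), the brassinosteroid gene *ROT3* (1.35, overlapping a gene on the other strand), *ERF9* (1.36) and *ERF53* (5.27). *TIP2;2* had 89.6, 108 and 132 CPM in *phot2* and 35.8, 49.3 and 36.4 CPM in wild type after UV-C, and 69.4, 68.2 and 68.7 CPM in *phot2* and 54.0, 48.2 and 61.8 CPM in wild type without UV-C. *CYP71B26* had 16.3, 14.8 and 14.6 CPM in *phot2* and 5.76, 6.02 and 5.90 CPM in wild type after UV-C, and 7.74, 8.35 and 6.83 CPM in *phot2* and 7.68, 8.05 and 6.70 CPM in wild type without UV-C.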

How the results depend on the processing

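The 117 named genes kept their direction under every alternative that tested them, and 55 of the 94 called ones were called under all of them. The number of genes called after UV-C was 414, with 589 by the likelihood ratio test (405 shared), 461 by DESeq2 (405 shared), 412 with RLE scaling, 419 without a filter, 396 at a minimum of 20 reads, 425 over all gene types and 384 with only the 6 libraries (330 shared). With a replicate block it was 415 (396 shared), or 428 with the block by library number. *phot2* and wild-type libraries of the same replicate number deviated together with correlations of -0.02, -0.07 and 0.05. The second pair has unlike library numbers, so only the first and last pairs share theirs. Of the 3 *phot2* libraries 1 correlated best with the wild-type library of its own replicate number. These values show no pairing by replicate number, and a batch shared between libraries was not tested. The likelihood ratio test called 81 genes lower. Non-treated plants gave 350 calls by it, 254 by DESeq2 and 53 with only the libraries compared, and the interaction 217 by it and 133 by DESeq2. The cause was not tested.

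Members called per list also moved. The likelihood ratio test called 2 in ethylene, 2 in the morning clock, 2 in UV-B and flavonoids, 3 in indole glucosinolates, 10 receptor-like proteins, 5 glutamate receptor-like channels, 8 glutathione S-transferases, 12 cytochromes P450, 7 UDP-glycosyltransferases, and 1 each in DNA repair, oxidative signaling, calmodulin-like proteins and flower markers. DESeq2 called 2 in indole glucosinolates, 5 glutamate receptor-like channels and 1 in DNA repair. With only the libraries compared, the counts were 2 in pattern-triggered immunity, 2 in ethylene, 1 in senescence, 3 in the morning clock, 0 in UV-B and flavonoids, 3 in indole glucosinolates, 1 MYB factor, 5 glutathione S-transferases, 2 UDP-glycosyltransferases, 1 SAUR gene and 1 calmodulin-like protein. A minimum of 20 reads gave 0 in ethylene and 1 xyloglucan endotransglucosylase, the replicate block gave 1 xyloglucan endotransglucosylase, and the replicate block by library number gave 2 in pattern-triggered immunity, 3 in the morning clock, 2 in UV-B and flavonoids, 5 glutathione S-transferases and 1 xyloglucan endotransglucosylase.

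When single libraries were left out, 263 to 392 genes were called after UV-C, 221 to 347 higher and 41 to 45 lower, 158 to 169 in non-treated plants and 47 to 70 for the interaction. Called members ranged over 6 to 10 in abscisic acid, cold and dehydration, 1 to 4 in salicylic acid, 1 to 2 in pattern-triggered immunity, 0 to 1 in ethylene, 0 to 2 in senescence, 0 to 2 in UV-B and flavonoids, 0 to 1 in indole glucosinolates, 0 to 1 in DNA repair, 6 to 11 WRKY, 2 to 5 NAC, 1 to 8 MYB and 2 to 4 ERF factors, 5 to 7 CRKs, 1 to 3 wall-associated kinases, 2 to 7 receptor-like proteins, 2 to 3 glutamate receptor-like channels, 3 to 6 glutathione S-transferases, 6 to 8 cytochromes P450, 1 to 3 UDP-glycosyltransferases, 0 to 1 xyloglucan endotransglucosylases, 2 to 3 aquaporins and 1 to 2 nitrate and peptide transporters, with 2 evening genes, 1 morning gene and 1 SAUR gene throughout. With 3 libraries a group, levels under about 1 CPM rest on few reads.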

Other observations

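Genes of light and growth control that no list covered also differed, and they were picked after their values were seen. *PIL1* and *HFR1*, which respond to shade, and *PIF4*, a growth-promoting bHLH factor, were called higher in *phot2* after UV-C. *PIF4* had 52.2, 53.4 and 54.2 CPM in *phot2* and 18.5, 26.6 and 27.7 CPM in wild type (log2FC 1.14 ± 0.14, edgeR adjusted p = 7.49e-06), and *PIL1* had 2.86, 2.34 and 3.88 CPM in *phot2* and 0.515, 0.606 and 0.772 CPM in wild type (log2FC 2.27 ± 0.41, edgeR adjusted p = 0.000526). *HFR1* had a log2FC of 1.08 ± 0.22, *TAA1*, an enzyme of auxin synthesis, 1.13 ± 0.24, and *BIM1*, a partner of brassinosteroid factors, 1.14 ± 0.08. In the list of auxin response repressors, none of 26 Aux/IAA repressors was called by edgeR (quasi-likelihood or likelihood ratio) or by DESeq2. An unadjusted p under 0.05 was found for 7 of them, against 5803 of all 20094 genes tested.

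Single transporter genes, picked in the same way, rose as well. *LHT1*, an amino acid importer, had 23, 23.9 and 16.1 CPM in *phot2* and 5.90, 4.57 and 3.86 CPM in wild type (log2FC 2.12 ± 0.19, edgeR adjusted p = 1.82e-07), and *PMT6* had 43.3, 50.4 and 37.4 CPM in *phot2* and 10.3, 9.94 and 8.93 CPM in wild type (log2FC 2.16 ± 0.15, edgeR adjusted p = 1.03e-08). Of 28 aquaporins 2 rose, against 1.8% of all genes tested, and none fell. They were *TIP2;2* (1.44 ± 0.13) and the plasma membrane aquaporin *RD28* (1.2 ± 0.13). The defense regulator *WRKY70*, picked after its values were seen, had 141, 150.0 and 154 CPM in *phot2* and 194, 163 and 206 CPM in wild type after UV-C, 20.8, 14 and 20.3 CPM in *phot2* and 8.38, 11.5 and 6.67 CPM in wild type without UV-C, and a called interaction of -1.38 (edgeR adjusted p = 0.00511).

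The HXXXD-type acyltransferase gene *AT4G15390*, the second largest rise among called genes with a group mean of at least 1 CPM, had 3 or fewer reads in each wild-type library, and against a floor of 3 reads per library its mean in *phot2*, from 2.06, 0.796 and 0.982 CPM, was at least 8.62-fold higher. It is 1 of 8 genes called higher with at most 3 reads in every wild-type library, and 3 genes called lower had at most 3 reads in every *phot2* library.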
